A study of Rattus norvegicus with 8 samples.

Results

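Transcripts of the cytosolic ribosomal proteins were followed in whole rat ovary. Members were the genes whose array symbol has the form Rpl, Rps or Rplp plus a number and an optional suffix, with the S6 kinases left out. The rule took 89 genes with 160 probes of the 30367 probes on the array. Of these, 88 genes with 159 probes were tested, and 1 gene, Rps19bp1, whose product binds protein S19 and is not itself a ribosomal protein, was not well above background on any of the 8 arrays. The 88 genes comprised 76 core proteins (30 of the small 40S subunit, 43 of the large 60S subunit and 3 of the stalk of the 60S subunit) and 12 related copies such as Rpl39l and Rps27l, whose symbols carry an added letter or number.

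Ovary RNA from female rats, of a strain the labels do not name, was hybridised to Agilent arrays read in 1 colour, 4 of them labelled PMSG and 4 labelled control. PMSG, pregnant mare serum gonadotropin, acts like follicle-stimulating hormone and in part like luteinising hormone. Rats labelled PMSG received 50 IU under the skin at 26 days of age, in albumin phosphate buffer with a volume of 0.2 ml, rats labelled control received the same volume of buffer alone, and ovaries of both were taken after 48 h, at 28 days. The labels do not say whether a sample was 1 animal or a pool, so p-values measure the spread between these samples. The question was how gonadotropin treatment alters ovarian transcripts.

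Groups were taken from the sample titles, and some genes that respond to gonadotropin moved opposite to what is generally known. Cyp11a1, the first enzyme of steroid synthesis, fell by 3.36 on the log2 scale in arrays labelled PMSG, and Amh, of granulosa cells of small follicles, and Insl3, of theca cells, rose by 3.03 and 2.60. Whether titles were exchanged between the groups cannot be told from the files, and an exchange would turn the sign of every difference given here. Each "rose", "higher", "fell" or "lower" therefore means arrays labelled PMSG relative to arrays labelled control.

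The translating ribosome of the cytosol is built from 1 copy of nearly every ribosomal protein together with the ribosomal RNAs, so cells keep the transcripts of these proteins in step. Many of these transcripts begin with a C followed by a run of pyrimidines, the terminal oligopyrimidine tract, through which the mTOR pathway controls their translation. In the ovary, growing follicles and enlarging oocytes accumulate ribosomes. The related copies are mostly expressed in particular tissues or conditions.

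RefSeq promoter windows of the build GRCr8 were found by symbol for 68 of the 88 genes, and 5 of them are shown to set the starts of canonical genes beside those of related copies. Each line holds 30 bases before and 20 bases from the annotated transcript start, on the strand of the gene. Capitals mark a C at the first transcribed base followed without a break by at least 4 pyrimidines (C or T). This run was searched on the strand of the gene only.
Rps27 (chr2:177964587-177964636, minus strand): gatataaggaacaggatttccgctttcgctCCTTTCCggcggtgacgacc
Rps27l (chr8:76443628-76443677, plus strand): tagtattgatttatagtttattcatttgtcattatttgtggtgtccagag
Rpl22 (chr5:168117931-168117980, plus strand): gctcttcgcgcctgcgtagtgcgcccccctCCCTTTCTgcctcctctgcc
Rpl22l1 (chr2:113683166-113683215, plus strand): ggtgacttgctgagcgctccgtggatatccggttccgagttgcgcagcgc
Rpl39 (chrX:121195877-121195926, minus strand): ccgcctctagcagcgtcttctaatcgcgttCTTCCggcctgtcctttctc

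The run stood at the annotated start of 24 of the 61 core promoters (39.3%) and of 0 of the 7 promoters of related copies, against 2.63% of 27457 promoters of all genes. A run beginning anywhere within 10 bases of the start was held by 47 of the 61 core promoters, 4 of the 7 copies and 28.8% of all promoters. Rps27, Rpl22 and Rpl39 carried it, while Rps27l and Rpl22l1 did not carry it at this start. Among core and copy genes with a window, the median log2 difference between labels was 0.23 with the run at the start and 0.21 without it.

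Under the scaling used, the 76 core genes had slightly higher means in arrays labelled PMSG, but 10 of them (13.2%) passed the test, all higher, where 17.6% of all probes were called higher, and PMSG array 4 did not show the shift. Values are log2 signals minus the array's 75th percentile, and differences are PMSG minus control on that scale. All 76 core differences lay above 0, from 0.04 to 0.71, under the scaling used, but 72 did so after a GC trend was removed, 63 under quantile normalization and 54 under median centring. The median core difference was 0.22 with an interquartile range of 0.16 to 0.29, and that of all 25303 probes tested was 0.11 with an interquartile range of -0.28 to 0.48. Of all probes, 58% lay above 0. Changes are therefore to be read against a general shift of 0.11. Of the 76 core probes 70 had a mean level of at least 5, and the 613 other probes at such levels had a median difference of 0.16, with 69.0% above 0 and 21.4% called (55 higher, 76 lower). Fewer or more cells of a type and less or more RNA per cell cannot be told apart in whole ovary.

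Of the 88 genes, 14 (15.9%) passed limma's test at an adjusted p under 0.05, where 34.2% of all probes did. Of the 14, 12 were higher (17.6% of all probes were called higher) and 2 were lower (16.6% of all probes). The share called was thus below the background of this comparison. Without adjustment 29 of the 88 genes had a p under 0.05, against 45.4% of all probes. The values of the labels did not overlap in 19 genes that were higher (17.9% of all probes) and 2 that were lower (18.6%). An absolute log2 difference of 1 or more was reached by 1 gene, Rpl39l, and by 14% of all probes. The 40S and 60S proteins gave like counts, with 4 of 30 and 6 of 43 called, all higher, and their interquartile ranges ran from 0.17 to 0.30 and from 0.16 to 0.28.

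**Figure D1:**
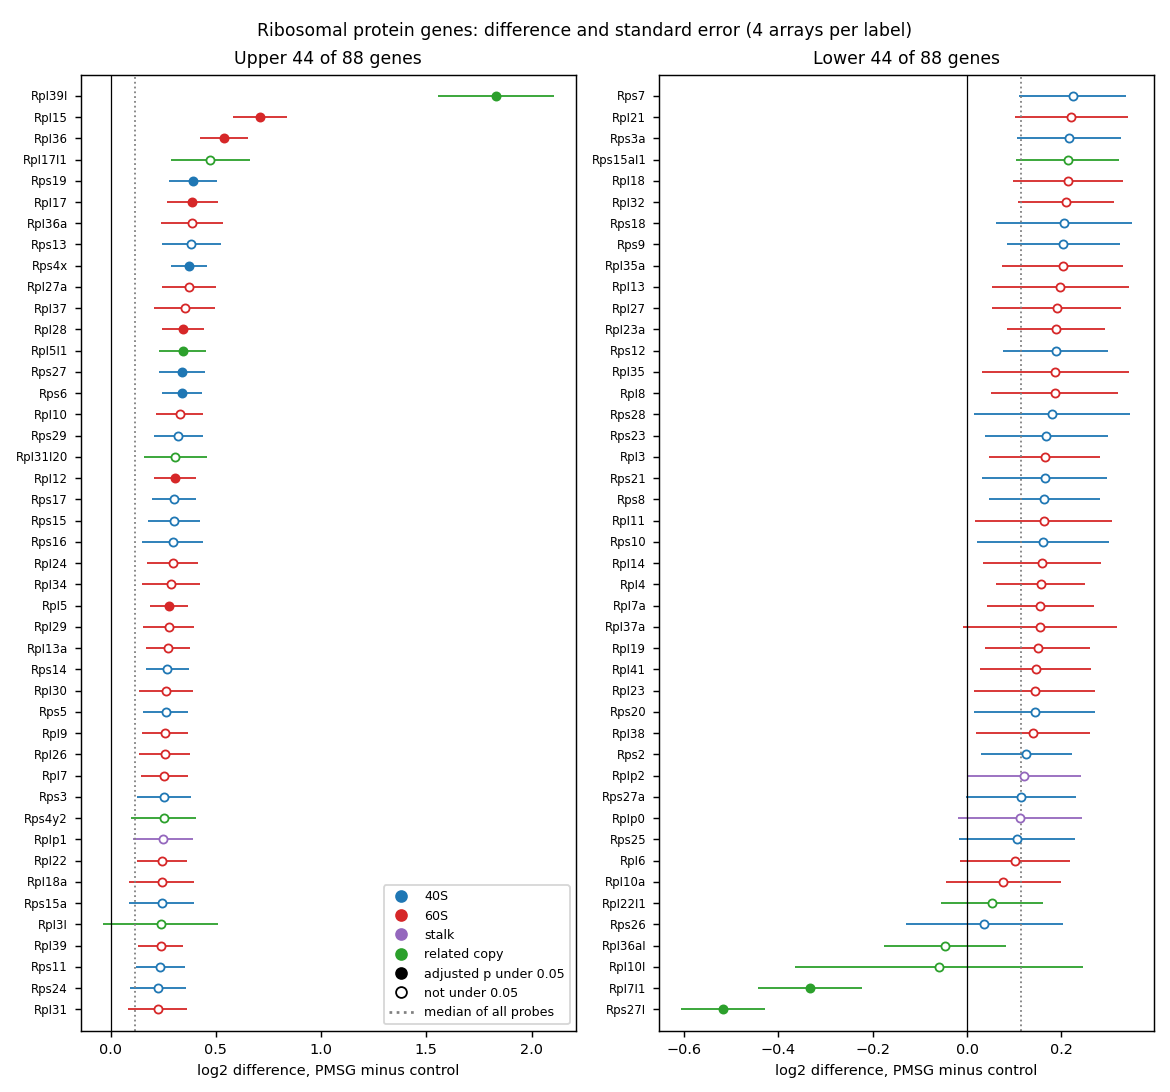
The log2 difference (PMSG minus control, horizontal axis) of each of the 88 genes with its limma standard error, 4 arrays per label, in descending order over both panels, whose horizontal axes differ in scale. Filled points passed the test; Rpl39l stands apart at 1.83, all 76 core genes lie above 0, and Rps27l is lowest at -0.52.

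The core shift was not the same on all arrays labelled PMSG. Relative to the mean of the control arrays, the median over the 76 core genes was 0.06, 0.07, 0.00 and -0.13 on control arrays 1 to 4, and 0.34, 0.25, 0.37 and -0.03 on PMSG arrays 1 to 4. PMSG array 4 overlapped the control arrays, with 37 core genes above and 39 below the control mean, while all 76 were above it on PMSG arrays 1 and 3 and 74 on PMSG array 2. Control array 4 was low throughout, with 76 of 76 core genes below the control mean. The median of all probes on PMSG arrays 1 to 4 was 0.19, 0.08, 0.22 and -0.12 on the same scale, again lowest on PMSG array 4. That of the mitochondrial ribosomal proteins was -0.10, -0.22, -0.03 and -0.24, so PMSG array 4 was close to PMSG array 2 there. The cause of the low core values on PMSG array 4 was not tested.

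Without PMSG array 4, 55 of the 88 genes (62.5%) passed the test (54 higher, 1 lower), and the share of all probes called was 45.0%. Of the probes called in that fit, 61.3% were higher. Leaving out any 1 of control arrays 1 to 4 or PMSG arrays 1 to 3 left 5 or 6 genes past the threshold. These were 5.7% to 6.8% of the 88 genes, against 25.9% to 31.3% of all probes. Control array 4 and PMSG array 4 lay in the same column of the slide. Within that column the core medians differed by 0.10, and within column 3, which held control array 3 and PMSG array 3, by 0.37. Columns 1 and 2 held 1 label each. A fit with slide column as a block therefore takes the difference between labels from columns 3 and 4 alone, with 1 array of each label per column. In such a fit a call lost through slide position and a call lost through fewer arrays cannot be told apart. With slide column as a block in limma, 0 of the 88 genes passed (9 had an unadjusted p under 0.05) and 11.8% of all probes passed, although all 76 core differences again lay above 0 with a median over the 88 genes of 0.23. Within slide rows 1 and 2, each of which held 2 arrays per label, the core median differed by 0.34 and 0.12. The part of slide position in the shift was not tested further.

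**Figure D2:**
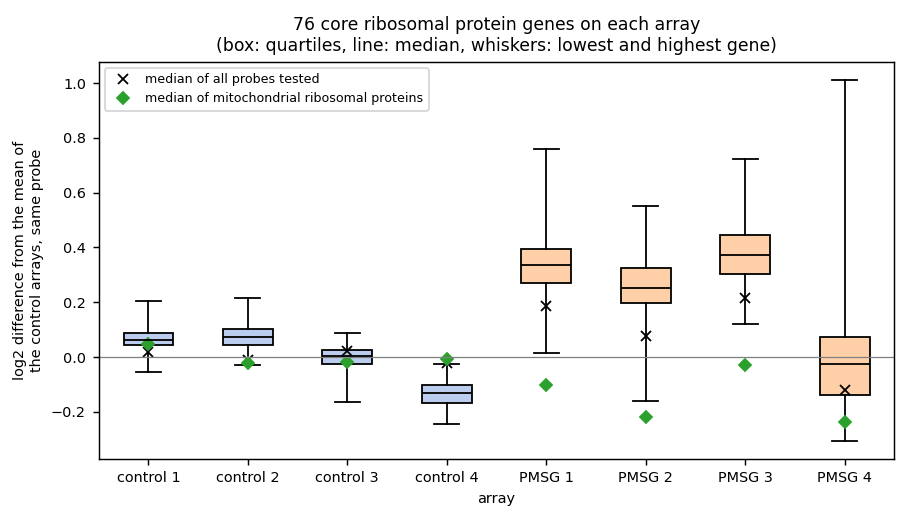
Each box gives the 76 core ribosomal protein genes on 1 array as log2 difference from the mean of the control arrays (box, quartiles; line, median; whiskers, lowest and highest gene), with the medians of all probes (crosses) and of 69 mitochondrial ribosomal proteins (diamonds). PMSG arrays 1 to 3 have core medians of 0.25 to 0.37, PMSG array 4 lies at -0.03, and the mitochondrial medians on the PMSG arrays lie below 0.

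Among the 60S proteins, Rpl15 showed the largest core difference when each gene was read by its brightest probe. Rpl37a differed by 0.15 on its brightest probe and was not called, but its 2 dimmer probes differed by 0.51 and 0.87 and were called. L15 is a protein of the large subunit needed for its ribosomal RNA processing. Its single probe (chromosome 15, 9085404 to 9085463, rn4) gave -0.31, -0.18, -0.20 and -0.37 on control arrays 1 to 4 and 0.49, 0.28, 0.25 and 0.74 on PMSG arrays 1 to 4. Every PMSG array exceeded every control array, and here PMSG array 4 was the highest of all. The difference was 0.71 (SE 0.13, limma adjusted p = 0.00389). This probe was the dimmest of the core genes, at a mean level of 0.09 against a median of 6.58 over the core genes.

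Rpl36, another 60S protein, rose from 5.75 ± 0.13 to 6.29 ± 0.16 (SD, n = 4 each). On control arrays 1 to 4 it read 5.72, 5.91, 5.76 and 5.61 and on PMSG arrays 1 to 4 it read 6.33, 6.26, 6.47 and 6.09, without overlap. The difference was 0.54 (SE 0.12, limma adjusted p = 0.00800), and the other probe of the gene rose by 0.44. The remaining 60S genes that passed were Rpl17 at 0.39, Rpl28 at 0.34, Rpl12 at 0.31 and Rpl5 at 0.28. L5 forms a particle with the 5S RNA that also binds the p53 regulator MDM2. The probe of Rpl17 shares a run of at least 25 bases with probes of other names, so its signal can include related transcripts. A dim Rpl28 probe differed by -0.13 while its other probes differed by 0.34 and 0.30.

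Among the 40S proteins, Rps4x, the X-linked S4 gene, had the tightest values. It read 5.21, 5.12, 5.18 and 5.07 on control arrays 1 to 4 and 5.54, 5.42, 5.61 and 5.51 on PMSG arrays 1 to 4. The groups did not overlap, PMSG array 4 included, and the difference was 0.37 (SE 0.09, limma adjusted p = 0.0121). It no longer passed under median centring, after a GC trend was removed, or with slide column as a block. Rps6, whose product is the S6 substrate of the S6 kinases, differed by 0.34 (SE 0.10, limma adjusted p = 0.0260), with control values of 6.23, 6.32, 6.27 and 6.05 and PMSG values of 6.59, 6.56, 6.60 and 6.47. Its probe shares a run with a probe of another name. Rps19, mutated in Diamond-Blackfan anaemia, rose by 0.39 and Rps27 by 0.34 (limma adjusted p = 0.0309 and 0.0416).

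The called genes differed in how firmly they passed. Rpl15, Rpl36, Rpl39l and Rps27l passed under the 21 alternatives listed first and without replicate 4 of both labels, and lost the call with slide column as a block, at adjusted p values of 0.0773, 0.0698, 0.0753 and 0.0724. Rps4x lost the call in 3 of the 23 alternatives. Rps6, Rps19, Rpl17, Rpl28, Rps27, Rpl5l1, Rpl7l1, Rpl12 and Rpl5 lost it in 10 to 15, among them at least 5 of the 8 that left out 1 array. Rpl10 at 0.33, Rpl27a at 0.37 and Rpl37 at 0.35 did not overlap between the labels but missed the threshold (limma adjusted p = 0.0521, 0.0555 and 0.0956).

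The stalk proteins P0, P1 and P2, which recruit translation factors to the ribosome, did not pass. Rplp0 read 7.52, 7.49, 7.48 and 7.31 on control arrays 1 to 4 and 7.69, 7.56, 7.76 and 7.24 on PMSG arrays 1 to 4. Rplp1 and Rplp2 followed the same course, with PMSG array 4 among the lowest values. Their differences were 0.11, 0.25 and 0.12 (limma adjusted p = 0.521, 0.211 and 0.453). At the other end of the core genes, Rps26 at 0.04 and Rpl10a at 0.08 had the smallest differences.

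The related copies did not follow the canonical genes alike. Of the 12, 2 were called higher (Rpl39l and Rpl5l1), 2 were called lower (Rps27l and Rpl7l1), and 8 were not called. The share of copies called, 33.3%, was near the 34.2% of all probes called (17.6% higher, 16.6% lower). Rpl39l, a copy of Rpl39 best known from the testis, gave the largest difference of all members. Its probe covers the end of the coding sequence, with 19 codons before the stop codon in capitals (chr10:5409629-5409688, rn4, minus strand):
Rpl39l: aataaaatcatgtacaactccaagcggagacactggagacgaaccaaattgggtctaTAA

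Rpl39l read -4.10, -3.09, -2.96 and -3.14 on control arrays 1 to 4 and -1.50, -1.13, -1.45 and -1.90 on PMSG arrays 1 to 4. Control array 1 was low and no PMSG array came near the control values. The difference was 1.83 (SE 0.27, limma adjusted p = 0.00157). Rpl39 itself read 5.91, 5.97, 5.83 and 5.71 on control arrays and 6.24, 6.09, 6.11 and 5.92 on PMSG arrays, a difference of 0.24 that did not pass (limma adjusted p = 0.117). All 10 oocyte markers tested were higher in arrays labelled PMSG, with a median difference of 1.95 and summed levels of 1.99 to 2.79 in control and 3.82 to 4.79 in PMSG arrays. Gdf9, Zp1, Zp2 and Zp3 are among them. Oviduct epithelium markers, Foxj1 and Pax8 among them, were higher in 5 of 5. All of these oocyte and oviduct markers passed the test, where 17.6% of all probes were called higher. Their part in the Rpl39l difference was not tested.

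Rps27l, a copy of Rps27 known to be induced by p53, went the other way. It read 4.59, 4.49, 4.51 and 4.48 on control arrays 1 to 4 and 4.14, 3.98, 3.98 and 3.91 on PMSG arrays 1 to 4, and no array of one label reached the other. It fell by 0.52 on the log2 scale (SE 0.09, limma adjusted p = 0.00303). Rps27 read 6.79, 6.82, 6.79 and 6.71 on control arrays and 7.15, 7.10, 7.32 and 6.90 on PMSG arrays. Rpl7l1, a protein related to L7 that acts in large subunit assembly, fell from 1.76 ± 0.13 to 1.42 ± 0.13 (SD, n = 4 each; limma adjusted p = 0.0467).

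Copy and canonical gene were compared within each array for 8 pairs, with an exact two-sided permutation test over the 70 splits of 8 arrays, a test added after the values had been seen. With 4 arrays per label the smallest p it can give is 0.0286, and after adjustment over the 8 pairs no pair passed 0.05. For a pair at this smallest p, the adjusted p is set by how many pairs reach it and not by the size of the pair's difference. The copy moved relative to the canonical gene by 1.59 for Rpl39l, -0.86 for Rps27l, -0.59 for Rpl7l1 and -0.44 for Rpl36al, each at an exact p = 0.0286 and adjusted p = 0.0571. Rpl36al read 4.39, 4.29, 4.07 and 4.19 on control arrays and 4.44, 4.25, 3.99 and 4.06 on PMSG arrays, so that its own difference was -0.05, while Rpl36a differed by 0.39. Rpl22l1 against Rpl22 gave -0.19 (exact p = 0.114), Rpl10l against Rpl10 gave -0.39 (exact p = 0.257), Rps4y2 against Rps4x gave -0.12 (exact p = 0.543) and Rpl3l against Rpl3 gave 0.07 (exact p = 0.771). The brightest Rpl22l1 probe, used here, differed by 0.05 between labels, and its other probe differed by -0.24. Rpl3l is a muscle paralogue and Rpl10l is known from the testis. The sign of the Rpl22l1, Rpl3l and Rps4y2 values turned under at least 1 alternative, and these p-values do not show that copy and canonical gene moved alike.

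**Figure D3:**
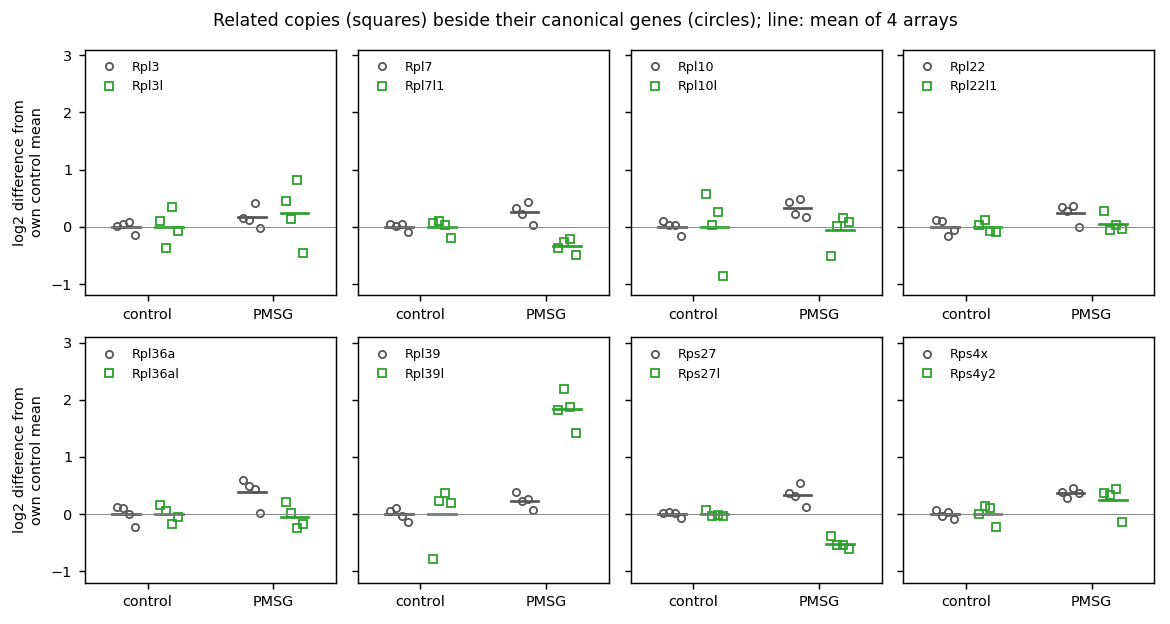
For 8 pairs, each array is shown as the log2 difference from the gene's own control mean (vertical axis), circles for the canonical gene and squares for the related copy; lines are means of 4 arrays. Rpl39l lies above Rpl39 in arrays labelled PMSG, while Rps27l, Rpl7l1 and Rpl36al lie below Rps27, Rpl7 and Rpl36a.

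Some called names are not independent of each other or of other transcripts. The probes of Rpl5l1 (chromosome 14, 2401281 to 2401340) and Rpl5 (2401385 to 2401444) lie 44 bases apart on the same strand in rn4, so both may read the same transcript. In all, 25 of the 88 probes share a run of at least 25 bases with a probe of another name. By accession 78 genes were found in RefSeq, 75 of them under the same symbol. Rpl39l, Rpl36al and Rpl37, the last counted as core, were found as Rpl39l1, Rpl36al1 and Rpl37l1. Of 51 genes with several probes, 48 had all probes on one side of 0, and 0 had probes called in both directions. At least 1 probe was called in 19 genes, against 14 genes on the brightest probe. Over all 159 probes of the members 24 were called (15.1%, against 34.2% of all probes). A further 183 probes described as ribosomal proteins but named otherwise in the array files had 20 called, all higher (10.9%, against 17.6% of all probes called higher), a median difference of 0.26 and 172 values above 0.

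The machinery that builds ribosomes is set beside the core genes by counts and medians alone, and no difference between the lists was tested. These lists were chosen with earlier results of the data known. The background for their counts is the 16.6% of all probes called lower and the 17.6% called higher. Of 56 genes of nucleolar ribosome assembly 26 were called lower and 1 higher, with a median of -0.28. Utp20, Gar1 and Bop1, which process or modify ribosomal RNA, fell by 1.25, 0.96 and 0.94. Of 15 genes of RNA polymerase I and its factors 6 were called lower and 2 higher, with a median of -0.32, and Polr1e, Rrn3 and Polr1a fell by 0.76, 0.69 and 0.64. Of the genes named here Rrn3 and Utp20 varied most across the alternatives, from -0.92 to -0.24 and from -1.51 to -0.44. Rrn3 lost the call under another background correction (normexp), and Utp20 with slide column as a block. The difference between the core median and the assembly median, which subtracting a constant from an array cannot alter, was 0.51 as reported, 0.27 under quantile normalization and 0.52 after a GC trend was removed.

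Mitochondrial ribosomal proteins, encoded in the nucleus for a separate ribosome, gave mostly values below 0. Of 69, 17 were called lower and 1 higher, with a median of -0.17, and 52 lay below 0. Mrpl49, Mrps12 and Mrpl43 fell by 0.78, 0.62 and 0.58. Initiation factors had 14 of 37 called lower and 2 higher (median -0.20), with Eif4a1, the cap-complex helicase, lower by 0.99 on the log2 scale, from 3.45 ± 0.07 to 2.46 ± 0.14 (SD, n = 4 each). Elongation and release factors had 5 of 13 called lower and 0 higher (median -0.06), and Etf1 and Eif5a fell by 0.92 and 0.81.

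**Figure D4:**
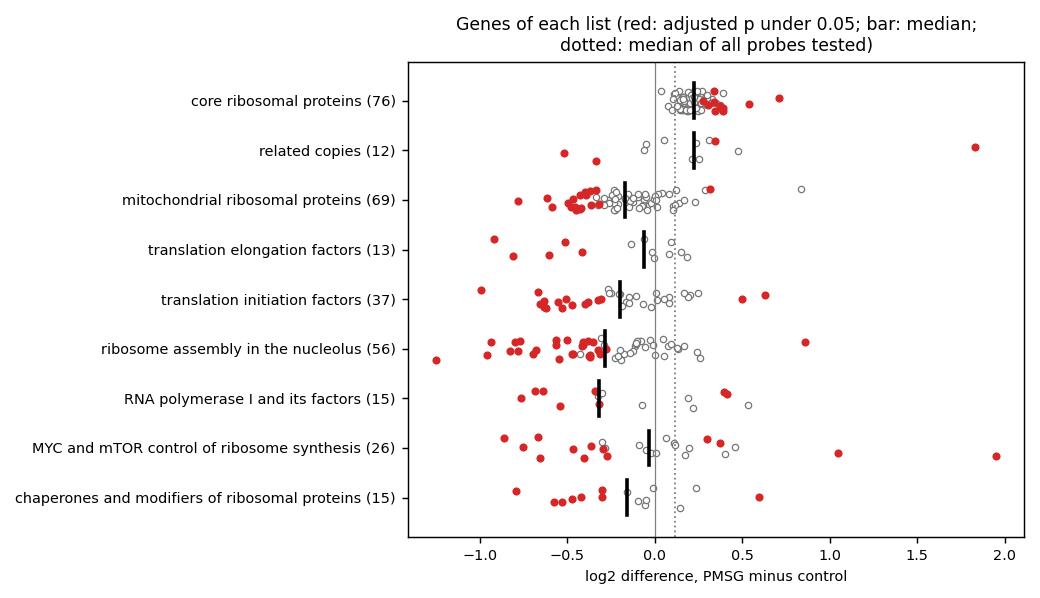
Each point is 1 gene, placed by its log2 difference (PMSG minus control); red points passed the limma test, bars are list medians and the dotted line is the median of all probes. The core ribosomal proteins lie above 0 with a median of 0.22, whereas assembly factors (-0.28), RNA polymerase I genes (-0.32) and mitochondrial ribosomal proteins (-0.17) lie mostly below it.

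Of 15 chaperones and modifiers of ribosomal proteins 7 were called lower and 1, Tsr2, higher. Tsr2 is the escort of S26, and it rose by 0.60. In the MYC and mTOR list 9 of 26 were called lower and 4 higher. Mycn, a MYC family transcription factor, rose from -1.11 ± 0.18 to 0.84 ± 0.27 (SD, n = 4 each; difference 1.95, limma adjusted p = 1.35e-04), and Mxi1, a MYC antagonist, rose by 1.05. Deptor, an mTOR inhibitor, fell by 0.86. The median of this list was -0.03 and turned to 0.01 when arrays were scaled over probes above background on all arrays.

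The counts of these lists depended on the setting. Under 6 other scalings or corrections the number called lower ran from 23 to 29 for assembly, 4 to 8 for RNA polymerase I, 13 to 32 for mitochondrial proteins, 11 to 15 for initiation, 4 to 5 for elongation, 5 to 7 for chaperones and 6 to 10 for MYC and mTOR. The number called higher ran from 0 to 5 for mitochondrial proteins, 0 to 4 for initiation and 0 to 3 for RNA polymerase I. With slide column as a block in limma, where 11.8% of all probes passed, the lower calls fell to 7 for assembly, 2 each for RNA polymerase I, initiation, elongation and MYC and mTOR, 1 for chaperones and 0 for mitochondrial proteins, of which 9 had an unadjusted p under 0.05. In that fit 2 genes of the MYC and mTOR list, 1 assembly gene and 0 of the other lists were called higher.

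On the 8 arrays 80.8% to 84.6% of probes were above background, 448 to 1073 spots were called outliers and no spot was saturated. Weights estimated per array ran from 0.279 for PMSG array 4 to 1.95 for control array 2. Set against 17.6% of all probes called higher and 16.6% called lower, leukocyte markers were higher in 5 of 9, endothelial markers lower in 4 of 7 and higher in 1, and red blood cell markers lower in 1 of 5. Adipocyte markers were higher in 1 of 7 and fibroblast or smooth muscle markers in 2 of 6. Granulosa markers were higher in 1 and lower in 1 of 5, and theca markers higher in 2 and lower in 1 of 4.

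**Figure D5:**
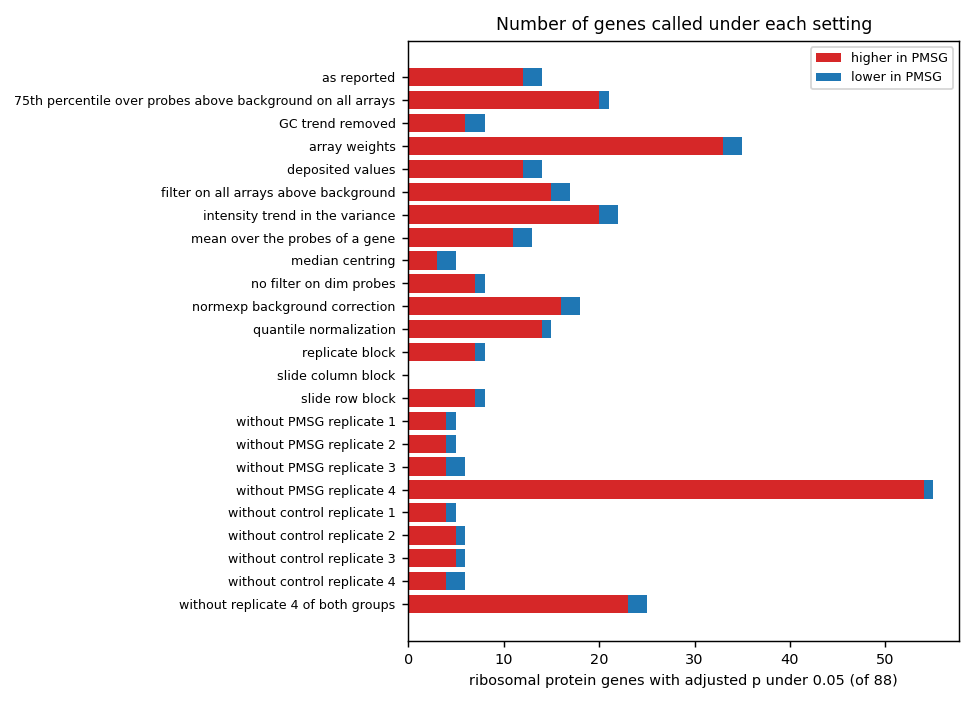
The number of ribosomal protein genes, of 88, with a limma adjusted p under 0.05 (horizontal axis) under each of the 24 settings, red for higher and blue for lower in arrays labelled PMSG. The count is 14 as reported, 55 without PMSG array 4, 35 with array weights, and 0 with slide column as a block, a fit in which only columns 3 and 4 inform the difference. The share of all probes called was 34.2%, 45.0%, 43.5% and 11.8% in these 4 fits.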

How the data were processed

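RNA was extracted from ovaries, and 500 ng of total RNA each was amplified from oligo-dT priming and labelled with Cy3, per the labels' protocols. Spot signal intensity was read with Agilent Feature Extraction 11.5.1.1, per the file headers. A second deposited file holds log2 values, which matched log2 intensity minus the array's 75th percentile for every array (median difference 0.004 to 0.015), without centring of probes. Columns not used numbered 0.

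Control and outlier spots were left out, spots of a probe were averaged, and each array's 75th percentile (signals of 769 to 1103) was subtracted. Probes above background on at least 4 of 8 arrays were tested with limma 3.58.1 in R 4.3.3, without covariates, with Benjamini-Hochberg adjustment over 25303 probes. The brightest probe stood for a gene. Tested on simulated data in which only a small part of the 25303 probes was changed, the fit recovered 44% of log2 changes of 1 and 2% of 0.5. In the real comparison 34.2% of probes passed, which makes the adjustment less strict. These shares are therefore not the power of the real comparison. Members and lists were chosen with earlier results of these data known. Named genes were the 8 largest called per direction, the stalk proteins, the paired copies, and the largest 3 called of each list; others were named after their values were seen. Replicate numbers did not pair the arrays (correlations of deviations 0.04, 0.04, 0.18 and -0.02). All 8 arrays lay on 1 slide. In the lists, 1 gene is not reported here.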

Additional observations from a re-analysis of the deposited data

Results flagged for a closer look

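Rpl39l on control array 1 (-4.10) lay apart from the other control arrays (-3.14 to -2.96), a gap of 0.846 of the group's range. Rplp1 on PMSG array 4 (5.54) lay apart from the other PMSG arrays (up to 6.06), a gap of 0.882 of the range. Of 70 groups examined 2 were marked, where 3.5 are expected by chance.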

How the results depend on the processing

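Across 21 alternatives and 2 added after the data were seen (replicate 4 of both labels left out; slide column as a block), the ribosomal protein genes past the threshold, 14 as reported (12 higher, 2 lower), numbered 0 (0 higher, 0 lower; 2983 probes in all) with slide column as a block, 5 (3 higher) under median centring, 8 (6 higher) after a GC trend was removed, 8 (7 higher, 1 lower) with no filter on dim probes and again with slide row as a block, 22 (20 higher) with an intensity trend in the variance, 25 (23 higher) without replicate 4 of both labels and 35 (33 higher) with array weights; 20 were higher and 1 lower when arrays were scaled over probes above background on all arrays, and 1 was lower under quantile normalization. Leaving out 1 array gave 5 to 55 past the threshold, 4 to 54 higher and 1 to 2 lower, and PMSG array 4 gave the highest count. The genes' median difference, 0.22, was 0.057 under median centring, where that of all probes turned from 0.11 to -0.054 and 34.5% of called probes were higher, against 51.4% as reported and 41.9% after the GC trend was removed. The cause was not tested. The replicate numbers share only a number; with the replicate block 8 genes passed (7 higher, 1 lower). In the pair test, averaging over all probes of a gene took 5 pairs to an adjusted p of 0.0457, because more pairs reached the smallest p the test can give. Rpl22l1 against Rpl22, at -0.35 in that setting, was among these 5 pairs. The number of arrays, 4 per label, limits the precision.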
